A study of Mus musculus with 3 samples.

Results

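The 30 genes described here encode the enzymes that split glucose to pyruvate, the transporters that bring glucose in and carry lactate out, the lactate dehydrogenases, and the proteins that decide whether pyruvate enters the mitochondrion. They were taken by symbol from the 32285 gene rows of each count matrix, and all 30 were found. The list of symbols uses no measured value, but it was set with earlier results of these data known. Single-cell RNA profiles came from mouse tumour tissue, with 3 libraries and 1 library per group. Every group carried tumours of LLC1-sgLkb1 cells, a subline of Lewis lung carcinoma given in the labels as an LKB1 knockdown. In the series design they were seeded in the lung through the tail vein and again, 3 weeks later, under the skin, where the irradiated tumour grew. The Flox+ICI library came from a host with a floxed Sfrp2 gene after an immune checkpoint inhibitor alone. The Flox+RI library came from the same host genotype after radiation and the inhibitor, and radiation and the inhibitor were also given for the library labelled CKO+RI, whose host should lack Sfrp2 wherever the Col1a2 promoter is active, which is mainly in fibroblasts. The labels call the tissue only tumour and give no age, no site of the sampled lesion and no number of animals per library.

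Glycolysis breaks glucose into pyruvate in the cytosol and yields ATP without oxygen. Lactate dehydrogenase turns pyruvate into lactate and regenerates the NAD that the pathway needs, and monocarboxylate transporters carry the lactate across the membrane, while pyruvate dehydrogenase, held in check by its kinases, opens the way to the mitochondrion. Most steps have several isoforms that differ between tissues, and many of the genes are activated by hypoxia-inducible factors and are raised in rapidly growing tumours, where neutrophils, macrophages, T cells and vessel cells use the same pathway.

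Cells were clustered without these 30 genes and named from marker genes, and UMIs (captured RNA molecules) were summed per library and compartment. Values come in the order Flox+ICI, Flox+RI, CKO+RI throughout. Tumour cells numbered 3196, 4173 and 3563, myeloid cells (neutrophil-like, macrophage-like, alveolar macrophage-like and monocyte-like) 3962, 4059 and 1811, lymphoid cells (T, NK and B cell-like) 1265, 847 and 674, and endothelial cells 484, 121 and 359. Clusters left without a name stood outside these sums and held 75, 2317 and 1355 cells. Levels are in CPM, the UMIs of a gene per 1000000 UMIs of the compartment. The library totals were 75543561, 101840883 and 161250286 UMIs, so the smallest sum, endothelial cells of Flox+RI at 705253 UMIs, is far less precise than the tumour sums of 47998457 to 93463311. Xist, which is transcribed from the inactive X chromosome of female cells, was 2.11 to 2.99 CPM in the tumour class and 201 to 401 CPM in the others. The naming rule gave the tumour name only to clusters under 20 CPM of Xist. This split therefore follows from the rule and does not check the names. Tumour marker RNA summed over 10 genes stood in the host compartments at 5.34% to 5.72% of its tumour level in Flox+ICI and 6.51% to 13.3% in Flox+RI. The library labelled CKO+RI had 11.5% to 19.1%. In each library 2 of the 10 genes (Prl2c2 and Prl2c3) had no UMI in myeloid and lymphoid cells. In endothelial cells 1 (Prl2c2) had none, and the other markers had UMIs in every host sum. The targeted genes were read in these compartments only. Stk11, which encodes LKB1, was 26.8 to 34.3 CPM in tumour cells and 32.9 to 44.4 CPM in host cells, and a guide can leave RNA in place, so this level does not check the label. Sfrp2 had at most 4 UMIs in any compartment, and those 4 were in endothelial cells of the library labelled CKO+RI. It was not read in fibroblast-like cells, where the loss should mainly fall, so these counts do not check the label.

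Gapdh, Pkm and Ldha, the enzymes of the NAD-reducing, pyruvate-forming and lactate-forming steps, had the highest mean levels in tumour cells. Gapdh was 2211, 4432 and 2848 CPM, and its mean was 3164 ± 1143 (SD, n = 3). Pkm, pyruvate kinase, was 1939, 3024 and 2246 CPM, and Ldha was 671, 1488 and 1044 CPM. For each of these 3 genes Flox+RI was the highest tumour sum and Flox+ICI the lowest. At the other end Pdk4, a pyruvate dehydrogenase kinase, had 1, 2 and 3 UMIs in the tumour sums, and Pdk2, another of these kinases, had 13, 11 and 9. In tumour cells 30 of the 30 genes had a UMI in every library, and in endothelial cells Eno2 had none in any library.

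**Figure D1:**
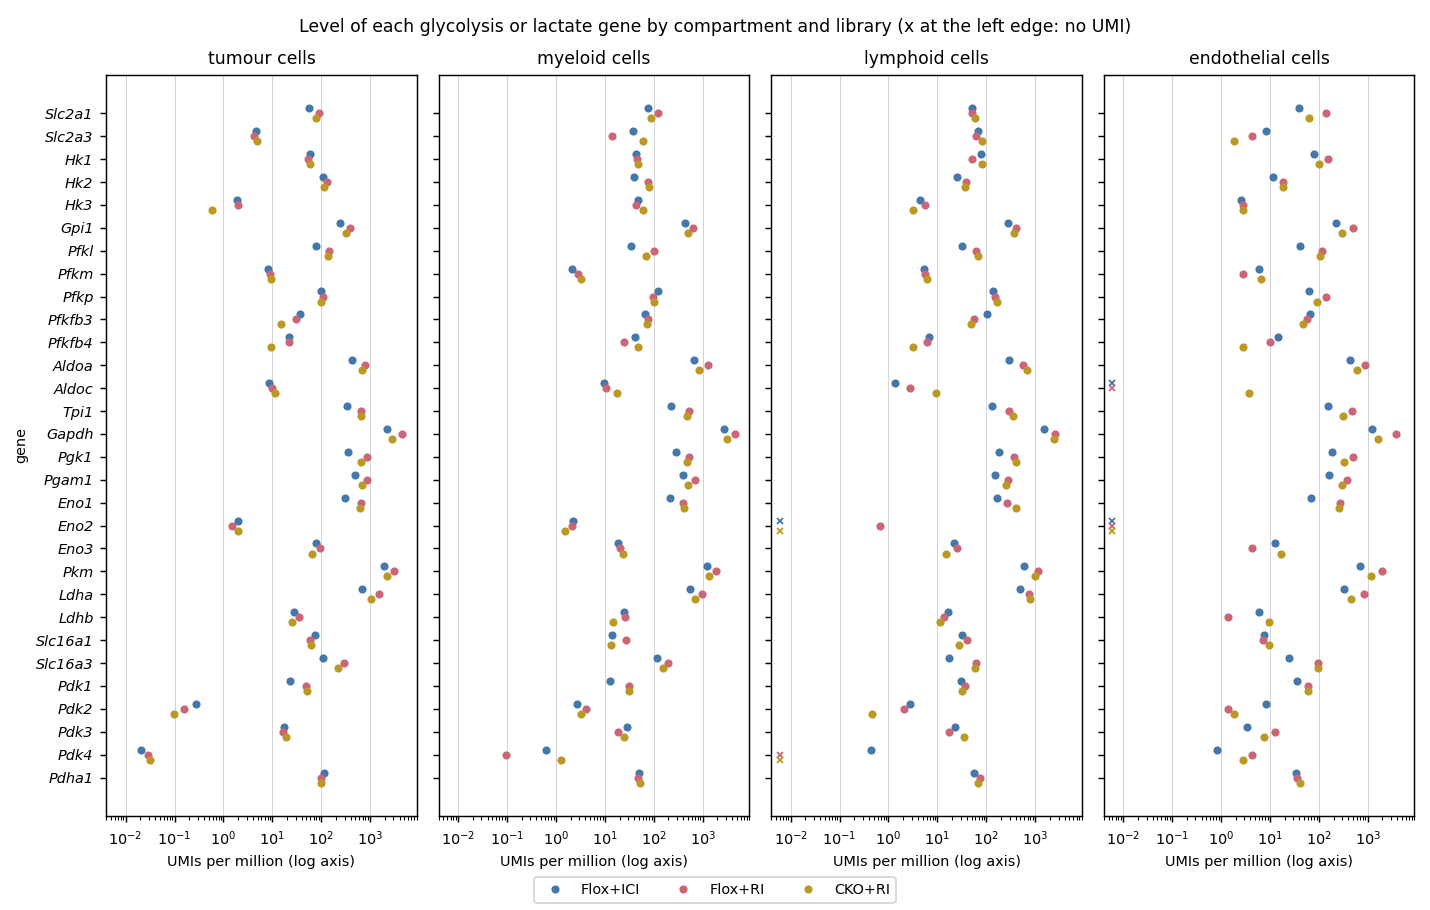
Level of each of the 30 genes in CPM (log axis) in tumour, myeloid, lymphoid and endothelial cells, with 1 point per library and a cross at the left edge where no UMI was found. Gapdh, Pkm and Ldha lie to the right in every compartment, Hk3 is high only in the myeloid panel, and Slc2a3 lies further right in the myeloid and lymphoid panels than in tumour cells.

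The first question was how tumour cells compare with the host compartments beside them. Tumour cells had higher levels of 13 genes than myeloid cells, of 17 than lymphoid cells and of 17 than endothelial cells, and lower levels of 7, 5 and 3. The test was edgeR's quasi-likelihood test over 12 sums with the library as a block and Benjamini-Hochberg adjustment over 14625 genes, called at an adjusted p under 0.05, and 29 of the 30 genes passed the filter on low counts (Pdk4 did not). Over all genes tested, 39.4% were called higher and 31.4% lower against myeloid cells, 28.9% and 30.9% against lymphoid cells, and 21.9% and 30.9% against endothelial cells. The median log2 difference of the 29 genes was 0.31, 0.70 and 0.91 in the 3 contrasts, beside 0.16, -0.03 and -0.14 over all genes. So in this fit 13 of 29 against myeloid cells is close to the share of all genes, while 17 of 29 against lymphoid or endothelial cells is above it. The 3 libraries differ in treatment and are the only replicates of these contrasts, and the labels do not say how many animals they hold.

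Glucose enters through Slc2a1 and Slc2a3, which encode the glucose transporters GLUT1 and GLUT3. Slc2a3 was 4.67, 4.26 and 4.9 CPM in tumour cells, 37.8, 14 and 58.9 in myeloid cells, 66.9, 62.4 and 80.7 in lymphoid cells and 8.44, 4.25 and 1.88 in endothelial cells. Every myeloid and lymphoid sum was above every tumour sum, while the endothelial and tumour values overlapped. Tumour cells were 14.9-fold lower than lymphoid cells (log2 difference -3.9, SE 0.35, adjusted p = 1.39e-06) and 7.25-fold lower than myeloid cells (log2 -2.86, SE 0.33, adjusted p = 7.76e-06). Within myeloid cells the gene was a neutrophil gene. It reached 181, 70.2 and 409 CPM in neutrophil-like cells and only 6.33, 4.48 and 3.87 in macrophage-like cells, and against macrophage-like cells alone the tumour difference was not called (adjusted p = 0.798, edgeR). Slc2a1 was 57.3, 89.4 and 77.9 CPM in tumour cells and was not called in any contrast of the main fit, with log2 differences of -0.35 against myeloid, 0.42 against lymphoid and -0.0049 against endothelial cells (adjusted p = 0.174, 0.141 and 0.99, edgeR). Against neutrophil-like cells alone it was called lower in tumour cells (log2 -0.92, adjusted p = 0.00594, edgeR).

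Hexokinases trap glucose as glucose 6-phosphate, and the 3 isoforms split by compartment. Hk2, the inducible isoform, was 111, 129 and 112 CPM in tumour cells against 39.7, 77.4 and 81.4 in myeloid, 25.1, 38.4 and 37.6 in lymphoid and 11.8, 18.4 and 18.8 in endothelial cells. All tumour sums lay above all others. The log2 difference was 0.89 (SE 0.17, adjusted p = 0.000518) against myeloid, 1.84 (SE 0.19, adjusted p = 4.72e-06) against lymphoid and 2.88 (SE 0.23, adjusted p = 5.1e-07) against endothelial cells, the last a 7.36-fold difference. Hk3 was the reverse, at 1.92, 1.96 and 0.588 CPM in tumour cells and 48, 43.9 and 59.4 in myeloid cells, and tumour cells were 36.9-fold lower (log2 -5.2, SE 0.37, adjusted p = 9.15e-08). Lymphoid cells, at 4.49, 5.49 and 3.25 CPM, were also above tumour cells (log2 -1.62, SE 0.52, adjusted p = 0.0176), and endothelial cells, at 2.53, 2.84 and 2.82 CPM, did not differ by the test (log2 -0.95, SE 0.78, adjusted p = 0.328). With each cell thinned to 500 UMIs, 2.12%, 2.09% and 2.43% of myeloid cells held a UMI of Hk3 against 0.0939%, 0.120% and 0.0281% of tumour cells and 0.0791%, 0.236% and 0.148% of lymphoid cells (10.9%, 10% and 19% of myeloid and 2.72%, 3.16% and 1.52% of tumour cells without thinning). Macrophage-like (63.5, 43 and 74.6 CPM) and neutrophil-like cells (49.4, 53.8 and 55.1 CPM) both carried it. Hk1, the general isoform, was highest in endothelial cells, at 81, 153 and 101 CPM against 58.2, 54.3 and 57.9 in tumour cells (log2 -0.95, SE 0.23, adjusted p = 0.00354). It was not called against myeloid (log2 0.31, adjusted p = 0.21, edgeR) or lymphoid cells (log2 -0.32, adjusted p = 0.229, edgeR).

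The next steps turn glucose 6-phosphate into fructose 1,6-bisphosphate, with phosphofructokinase as the gate. Gpi1, glucose phosphate isomerase, was lower in tumour than in myeloid cells (log2 -0.73, SE 0.15, adjusted p = 0.000707) and not called against lymphoid (log2 -0.16) or endothelial cells (log2 -0.041). Among the phosphofructokinase genes, the liver type Pfkl was 76.6, 144 and 139 CPM in tumour cells and was called higher than in each other compartment, with log2 differences of 0.88, 1.2 and 0.53 against myeloid, lymphoid and endothelial cells (adjusted p = 0.000385, 7.76e-05 and 0.0227, edgeR). Its levels overlapped with the myeloid and endothelial ones across libraries. The muscle type Pfkm, at 8.23, 9.13 and 9.3 CPM in tumour cells, was 3.31-fold higher than in myeloid cells (log2 1.73, SE 0.25, adjusted p = 4.37e-05), and its log2 differences of 0.66 and 0.73 against lymphoid and endothelial cells were not called (adjusted p = 0.0611 and 0.0848, edgeR). The platelet type Pfkp, at 99.5, 109.8 and 98 CPM in tumour and 138, 149 and 167 in lymphoid cells, was lower in tumour than in lymphoid cells (log2 -0.57, SE 0.21, adjusted p = 0.0345) and did not pass the test against myeloid (log2 -0.052) or endothelial cells (log2 0.087). Pfkfb3 makes fructose 2,6-bisphosphate, the strongest activator of phosphofructokinase. It was 36.9, 31 and 15.2 CPM in tumour cells, 66.4, 76.4 and 73.9 in myeloid, 103, 55.6 and 48.2 in lymphoid and 66.7, 56.7 and 47.1 in endothelial cells. No host sum was as low as the highest tumour sum, and the gene was called lower in tumour cells in each contrast, with log2 differences of -1.48, -1.34 and -1.09 (adjusted p = 0.000131, 0.000569 and 0.0046, edgeR). Its relative Pfkfb4 was 22.3, 21.7 and 9.47 CPM in tumour cells, lower than the 41.2, 24.1 and 46.9 of myeloid cells (log2 -1.16, SE 0.34, adjusted p = 0.00783) and higher than the 6.73, 6.17 and 3.25 of lymphoid cells (log2 1.72, SE 0.46, adjusted p = 0.00648), with a log2 of 0.97 against endothelial cells that was not called. As with Slc2a3, neutrophil-like cells held the most of it among myeloid cells in each library (109, 57.9 and 117 CPM against 19.9, 17.9 and 29.1 in macrophage-like cells), and the call was lost against macrophage-like cells alone (adjusted p = 0.281, edgeR).

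Aldolase cuts the sugar, and triose phosphate isomerase, glyceraldehyde 3-phosphate dehydrogenase, phosphoglycerate kinase, phosphoglycerate mutase, enolase and pyruvate kinase carry the products to pyruvate. Aldoa was 418, 774 and 669 CPM in tumour and 653, 1291 and 829.9 in myeloid cells and was lower in tumour cells (log2 -0.57, SE 0.17, adjusted p = 0.00919). Its log2 difference was -0.80 against macrophage-like cells alone (adjusted p = 0.00124, edgeR) and -0.003 against neutrophil-like cells alone (adjusted p = 0.99, edgeR). It was not called against lymphoid (log2 0.30) or endothelial cells (log2 -0.023). Aldoc, the brain-type aldolase, was sparse, with 8.75, 9.63 and 11.4 CPM in tumour cells, 1.35, 2.74 and 9.27 in lymphoid cells and UMIs in the endothelial cells of 1 library only. It was called higher in tumour than in lymphoid (log2 1.29, SE 0.44, adjusted p = 0.0235) and endothelial cells (log2 3.0, SE 0.70, adjusted p = 0.00295) and not against myeloid cells (log2 -0.28). Tpi1, Pgk1 and Pgam1 were called higher in tumour cells in every contrast. Their log2 differences against myeloid cells were small, at 0.44, 0.47 and 0.34 (adjusted p = 0.0287, 0.0139 and 0.0387, edgeR). Against macrophage-like cells alone the differences were 0.12, 0.32 and 0.062 and were not called (adjusted p = 0.543, 0.0927 and 0.744, edgeR). Against neutrophil-like cells alone they were 1.36, 0.82 and 0.98 and were called (adjusted p = 5.03e-05, 0.00216 and 0.000241, edgeR). The differences were also larger against lymphoid cells, at 1.13, 0.96 and 1.57, and against endothelial cells, at 0.85, 0.91 and 1.34. Gapdh was called higher than in lymphoid (log2 0.51) and endothelial cells (log2 0.58) and not against myeloid cells (log2 -0.17). Pkm was higher in each contrast, with log2 differences of 0.70, 1.42 and 1.0 and SEs of 0.17, 0.17 and 0.17. The enolases again divided. Eno1, the general enolase, was called higher in tumour cells in all 3 contrasts (log2 0.59, 0.91 and 1.51). Eno3, the muscle enolase, was 77.2, 96.1 and 63.4 CPM in tumour cells against 19, 20.6 and 23.3 in myeloid, 21.5, 25.4 and 14.8 in lymphoid and 12.7, 4.25 and 16.9 in endothelial cells, with no overlap of these sums. Its log2 differences of 1.9, 1.95 and 2.69 were among the largest of the 29 genes (adjusted p = 1.61e-05, 4.95e-05 and 2e-05, edgeR). Within myeloid cells the monocyte-like class held 42.7 to 73.5 CPM of Eno3 over the libraries, a range that overlaps the tumour one. Macrophage-like cells held 11.5 to 16.5 and neutrophil-like cells 12 to 33.4 CPM. Eno2, the neuronal enolase, was 2.02, 1.5 and 1.96 CPM in tumour cells and 2.27, 2.11 and 1.52 in myeloid cells (log2 -0.11, not called), 1 UMI was found in lymphoid cells, and none in endothelial cells, where 3 counts over the 2952332 UMIs of the 3 libraries would be 1.02 CPM. The test called Eno2 higher than in both, but the fitted fold against such counts has no firm size.

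The last 300 bases of transcripts of Gapdh, Eno1 and Aldoa are at least 95% identical to those of other genes with count rows of their own, such as Eno1b (100% identical to Eno1 over this stretch), so their counts are uncertain to the extent that reads were divided. The copies drew 4498 UMIs beside 129014 for Eno1, 3981 beside 805593 for Gapdh and 1 beside 169185 for Aldoa. Processed pseudogenes without count rows exist for these 3 and for Tpi1, Gpi1, Pkm, Ldha and Ldhb as well. Exons of Pfkm overlap those of another gene on the same strand, and the sources used here do not say how strand was counted.

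Lactate dehydrogenase is a tetramer of chains from Ldha, which favours lactate formation, and Ldhb. Ldha was higher in tumour cells in each contrast. It was 671, 1488 and 1044 CPM in tumour cells against 540.0, 950.4 and 701 in myeloid, 486, 730.0 and 794 in lymphoid and 330.1, 834 and 463 in endothelial cells, with log2 differences of 0.51, 0.61 and 1.0 (adjusted p = 0.0142, 0.00656 and 0.000294, edgeR). The levels overlapped between compartments but tumour cells were above the others within each library. Against macrophage-like cells alone the difference in Ldha was not called (log2 0.34, adjusted p = 0.0916, edgeR). Against neutrophil-like cells alone it was (log2 0.60, adjusted p = 0.0275, edgeR). Ldhb, at 28.4, 34.7 and 25.2 CPM in tumour cells, was higher than in lymphoid (log2 1.08, SE 0.28, adjusted p = 0.00503) and endothelial cells (log2 2.26, SE 0.38, adjusted p = 0.000281) and not called against myeloid cells (log2 0.47, SE 0.24, adjusted p = 0.0942).

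The lactate transporters showed different compartments. Slc16a1 encodes MCT1, which moves lactate in either direction. It was 73.8, 59.9 and 61.2 CPM in tumour cells against 13.9, 27.4 and 13.5 in myeloid, 32.3, 39.8 and 27.8 in lymphoid and 7.6, 7.09 and 9.41 in endothelial cells, without overlap. Tumour cells were 3.7-, 1.99- and 7.95-fold higher (log2 1.89, 0.99 and 2.99, adjusted p = 8e-06, 0.0025 and 6.64e-06, edgeR). Slc16a3 encodes MCT4, the exporter of highly glycolytic cells. It was 109, 288 and 219 CPM in tumour cells, 17.1, 61.1 and 57.5 in lymphoid and 24.5, 97.8 and 95.1 in endothelial cells, and the tumour differences of log2 2.24 and 1.57 were called (adjusted p = 8.69e-06 and 0.000208, edgeR). Against myeloid cells, at 119, 199 and 158 CPM, it was not called (log2 0.26, SE 0.23, adjusted p = 0.317). That sum joins unlike cells. Neutrophil-like cells held 338, 307 and 358 CPM, above the tumour sum of the same library each time, and macrophage-like cells 68.5, 180.4 and 153 CPM. Against neutrophil-like cells alone tumour cells were lower (log2 -0.90, adjusted p = 0.0171, edgeR), and against macrophage-like cells alone they were higher (adjusted p = 0.00573, edgeR).

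Pyruvate dehydrogenase and its kinases complete the set. Pdha1, the catalytic subunit that turns pyruvate into acetyl-CoA, was 114, 101 and 101 CPM in tumour cells and higher than in every other compartment without overlap, with log2 differences of 1.07, 0.70 and 1.5 (adjusted p = 2.17e-05, 0.00134 and 8.91e-06, edgeR). The kinases switch this enzyme off. Pdk1, the kinase known as a hypoxia target, was 23.4, 49.2 and 51.3 CPM in tumour cells and 12.8, 31.4 and 30.6 in myeloid cells (log2 0.74, SE 0.19, adjusted p = 0.00373), and it was not called against lymphoid (log2 0.24) or endothelial cells (log2 -0.37). Pdk2 was nearly absent from tumour cells, at 0.271, 0.157 and 0.0963 CPM, against 2.63, 4.12 and 3.27 in myeloid, 2.69, 2.06 and 0.464 in lymphoid and 8.44, 1.42 and 1.88 in endothelial cells. Its log2 differences of -4.35, -3.27 and -4.55 were called (adjusted p = 7.26e-06, 0.00246 and 0.000207, edgeR), although the lymphoid sums hold 6, 3 and 1 UMIs and the endothelial ones 10, 1 and 2. Pdk3 was higher in tumour than in endothelial cells (log2 1.29, SE 0.38, adjusted p = 0.0129) and not called against myeloid (log2 -0.44) or lymphoid cells (log2 -0.50). Pdk4 held 1 to 11 UMIs in the 3 myeloid sums, 1 in lymphoid cells and 1, 3 and 3 in endothelial cells, and was not tested.

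**Figure D2:**
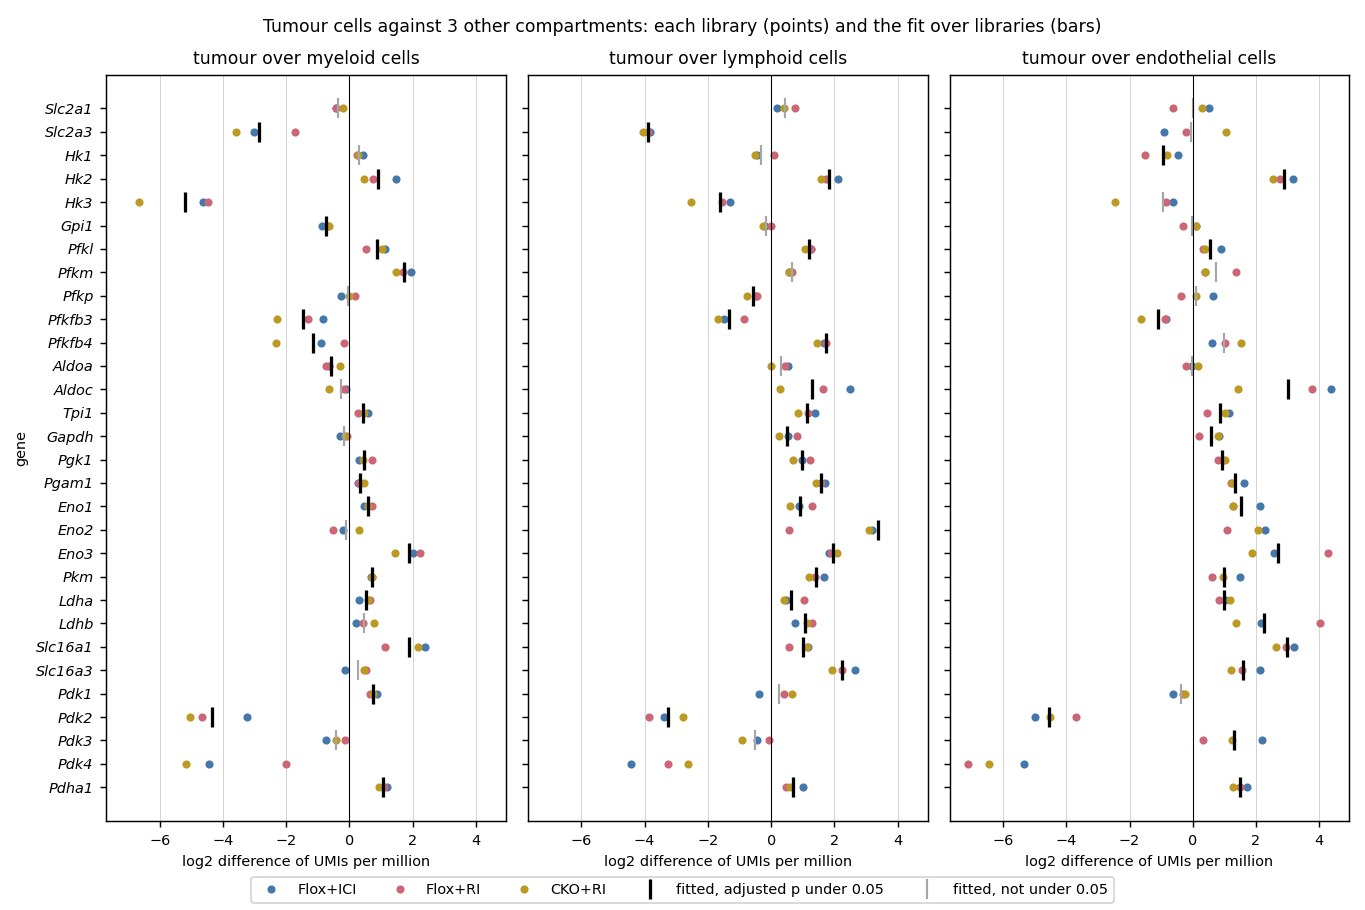
Log2 difference of tumour cells over myeloid, lymphoid and endothelial cells for each of the 30 genes, in CPM with 0.5 added to each sum of counts. Points are the 3 libraries, bars are the edgeR fit (black where the adjusted p was under 0.05), and no bar is drawn for Pdk4, which was not tested, or for Eno2 against endothelial cells, whose fit lies off the axis. Hk2, Eno3 and Slc16a1 lie to the right and Pfkfb3 and Pdk2 to the left in every panel.

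Several calls depend on the scaling, the clustering and doublet removal. Without doublet removal the naming rule left 937 Flox+RI cells in the tumour class, and 8, 7 and 10 genes were called higher than in myeloid, lymphoid and endothelial cells. Under TMM scaling 8 genes were called higher, with Eno1, Tpi1, Ldha, Pgam1 and Pgk1 lost (adjusted p = 0.119 to 0.429, edgeR), and with DESeq2 size factors 7. Slc2a1 (log2 -0.57 and -0.65) and Pdk3 (log2 -0.65 and -0.73) became called lower than in myeloid cells under both scalings. Gapdh (log2 -0.46) did so with DESeq2 size factors only (adjusted p = 0.0154 to 0.0472 over these calls, edgeR). Leiden resolution 2.0 lost the same 5 calls and left 8. The share of all genes called under these settings is not given here, so these counts have no background beside them. Whether the counts against lymphoid and endothelial cells stay above that share was not tested. Leaving out 1 library ended the call of Eno1, Tpi1, Ldha, Pgam1, Pgk1, Pfkfb4 or Aldoa against myeloid cells, of Gapdh, Eno2, Aldoc, Pfkfb4, Hk3 or Pfkp against lymphoid cells and of Gapdh, Eno2, Pfkl or Pdk3 against endothelial cells (adjusted p = 0.0555 to 0.233 over these fits, edgeR).

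Other genes of the pathway were read from 4 lists. Of 16 tested genes of glycolysis and its side paths, 6 were higher and 6 lower in tumour than in myeloid cells, 4 and 1 against lymphoid and 4 and 1 against endothelial cells. Gpd2, the mitochondrial glycerol 3-phosphate dehydrogenase that takes up cytosolic reducing power, was higher in each (log2 1.28, 1.57 and 2.02), while Slc2a6, a further glucose transporter family member, was lower than in myeloid cells (log2 -5.08). Of 4 tested genes of gluconeogenesis 4, 4 and 2 were higher and none lower. Fbp2, the muscle fructose bisphosphatase, led them (log2 3.66, 2.82 and 3.58). Of 11 tested genes of lactate and pyruvate handling, 3 were higher in each contrast and 3, 2 and 0 lower. Bsg, the chaperone that brings MCT1 and MCT4 to the membrane, was higher in each (log2 1.05, 1.51 and 0.63), as was Dld, the dihydrolipoamide dehydrogenase of the pyruvate dehydrogenase complex (log2 1.62, 1.62 and 1.27). Slc16a7, the MCT2 transporter, was lower than in myeloid and lymphoid cells (log2 -6.64 and -3.63). Of 7 genes of oxygen control, 2 were higher in each contrast and 3, 2 and 4 lower. Egln3, a prolyl hydroxylase that is itself a hypoxia target, was higher in each (log2 1.55, 1.96 and 0.89), and Epas1, which encodes HIF-2α, was lower in each (log2 -2.7, -4.32 and -9.14). Beside these, 8, 6 and 10 of 11 genes of dissociation stress were lower in tumour cells (0, 2 and 0 higher) and 7, 5 and 7 of 8 cell cycle genes were higher (none lower). Their part in the differences of the glycolytic genes was not tested.

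The second question was whether radiation added to the checkpoint inhibitor went with a different level. With 1 library per group there is no test, so ratios of CPM are given with 95% intervals that cover counting error only, and a gene counts as different at 1.5-fold or more with an interval that leaves out 1 and at least 20 UMIs in the pair of libraries. Values in parentheses after a gene are its ratio and this interval. In tumour cells 13 of 29 genes were higher in Flox+RI than in Flox+ICI and 0 lower, where 5.30% of all genes were higher and 19.7% lower. The median log2 ratio was 0.29 for the 29 genes and -0.24 for all genes. The TMM factors of this pair of tumour sums differed by -0.26 (log2), so relative to the bulk of genes the ratios are higher than printed. Without doublet removal 8 genes were higher, a count with no share of all genes given beside it. In myeloid cells 14 of 29 were higher and 3 lower (6.68% and 12.2% of all genes), in lymphoid cells 11 of 25 and 2 (5.36% and 7.37%), and in endothelial cells 15 of 19 and 0 (9.83% and 17.3%). Median log2 ratios in these host compartments were 0.60, 0.35 and 1.21.

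Part of the set was higher in all 4 compartments. Of the 19 genes with enough UMIs everywhere, 10 were higher in each compartment: Pfkl, Aldoa, Tpi1, Gapdh, Pgk1, Pgam1, Eno1, Pkm, Ldha and Slc16a3. Among 7866 genes with enough UMIs everywhere only 25 (0.318%) did this, so 10 of these 25 were glycolysis or lactate genes. Slc16a3 had ratios of 2.63, 1.67, 3.58 and 4.0 in tumour, myeloid, lymphoid and endothelial cells, Pgk1 2.44, 1.87, 2.05 and 2.74, Ldha 2.22, 1.76, 1.5 and 2.53, and Eno1 2.11, 1.77, 1.58 and 3.78. The other 15, named here after their values were seen, included Egln3 (2.25, 7.53, 3.35 and 9.74), the angiogenic peptide gene Adm (5.95, 5.51, 5.54 and 6.99), Ndrg1 (1.95, 1.98, 2.2 and 1.79) and the acute-phase gene Saa3 (10.2, 22.4, 83.8 and 11.8). Of the 7 genes of oxygen control, 2 were higher and 1 lower in tumour cells of Flox+RI, 1 and 0 in myeloid, 1 and 0 in lymphoid, and 1 and 2 in endothelial cells, where Epas1 and Egln2 were lower. Their median log2 ratios were 0.0028, 0.042, -0.020 and -0.10. The tumour cluster markers Il1rl1 (4.9, 9.5, 7.33 and 17.8) and Dkk2 (1.9, 3.1, 2.87 and 2.71) were among these 15 genes too, and tumour marker RNA in the host compartments was higher in Flox+RI than in Flox+ICI by the shares given above. The part of free tumour RNA in the host values was not tested.

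Not every gene moved. In tumour cells Hk2 had a ratio of 1.16 (1.13 to 1.21), Pfkp of 1.1 (1.06 to 1.14), Hk1 of 0.933 (0.889 to 0.981), Pdha1 of 0.886 (0.855 to 0.918) and Slc16a1, the MCT1 gene, of 0.813 (0.777 to 0.850). All of these lie inside 1.5-fold. The further genes higher in tumour cells were Pdk1 (2.1, 1.96 to 2.25), Gpi1 (1.66, 1.62 to 1.69) and Slc2a1 (1.56, 1.49 to 1.63). In endothelial cells Slc2a1, the main transporter of vessel walls, had a ratio of 3.5 (2.45 to 5.07) from 98 and 47 UMIs, Gpi1 of 2.21 (1.88 to 2.61), Pfkp of 2.23 (1.64 to 3.05), Hk1 of 1.89 (1.42 to 2.51) and Pdk1 of 1.72 (1.1 to 2.7). Endothelial cells of Flox+RI were few and held a median of 4183 UMIs against 1375 in Flox+ICI, and the part of this depth in the ratios was not tested. In these cells 6 of 11 dissociation stress genes were lower in Flox+RI and 0 higher. Summed over 10 markers each, epithelial marker RNA there was 3410 CPM in Flox+ICI (0 of 10 at 0) and 233 in Flox+RI (3 at 0), and neutrophil marker RNA was 1086 (1 at 0) and 180.1 (2 at 0). Their part in the ratios was not tested either. The endothelial sum changed in make-up as well. It includes a Prickle2-led cluster that gave 90 of 484, 5 of 121 and 58 of 359 endothelial cells. The part of this shift in the endothelial ratios was not tested. In lymphoid cells Hk2 was higher at 1.53 (1.04 to 2.25), a ratio that turned below 1 when cells were thinned to 2000 UMIs, while Pfkfb3 (0.538, 0.413 to 0.696) and Hk1 (0.646, 0.486 to 0.853) were lower. The lymphoid sum changed in make-up, with 37, 105 and 14 B cell-like and 228, 35 and 92 NK-like cells. Hk2 was 62.5 CPM in B cell-like cells of Flox+RI and 27.4 to 39.8 in T cell-like cells over the libraries. The part of this make-up in any lymphoid ratio was not tested. In myeloid cells Pdk1 (2.45, 2.01 to 3.01), Slc16a1 (1.97, 1.62 to 2.42), Hk2 (1.95, 1.73 to 2.2) and Slc2a1 (1.55, 1.42 to 1.7) were also higher, and Slc2a3 (0.370, 0.305 to 0.448), Pfkfb4 (0.586, 0.50 to 0.685) and Pdk3 (0.653, 0.543 to 0.783) lower. The myeloid sum changed in make-up, since macrophage-like cells were 10.2%, 16.8% and 7.40% of all kept cells and monocyte-like cells 10.4%, 1.32% and 4.12%. Within macrophage-like cells Pgk1 was 302, 562 and 607 CPM and Ldha 602, 989 and 859.9 CPM, so Flox+RI was above Flox+ICI for both. Neutrophil-like cells differed for some genes. Slc16a3 was 338, 307 and 358 CPM in them, lower in Flox+RI than in Flox+ICI, against a ratio of 1.67 for the myeloid sum. Gapdh was 2593, 2857 and 2554 CPM, against a myeloid ratio of 1.72. Slc2a3, Pfkfb4, Slc16a3 and Slc2a1 were each higher in neutrophil-like than in macrophage-like cells in every library, and a neutrophil-like cluster led by Il1r2 and Il1b came to 91.2% from Flox+RI.

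**Figure D3:**
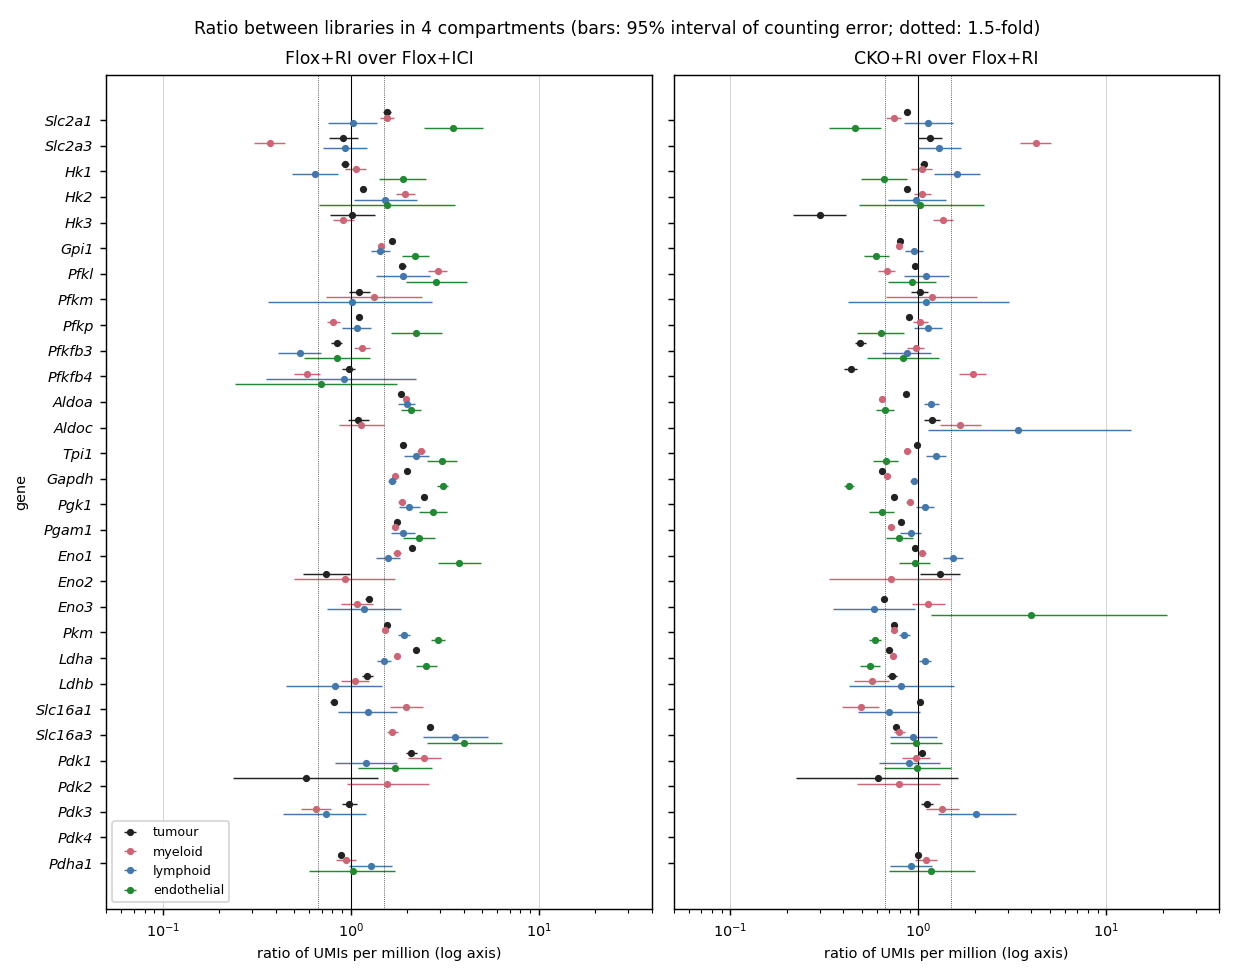
Ratio of CPM between libraries (log axis) for each gene in tumour, myeloid, lymphoid and endothelial cells, with bars for the 95% interval of counting error and dotted lines at 1.5-fold in either direction. Left, Flox+RI over Flox+ICI, where Pfkl, Aldoa, Tpi1, Gapdh, Pgk1, Pgam1, Eno1, Pkm, Ldha and Slc16a3 lie on or to the right of the upper dotted line in every compartment; right, the library labelled CKO+RI over Flox+RI, where most points lie near or left of 1.

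Promoters are shown for members that were higher together. Hypoxia-inducible factors bind a short core, searched here as ACGTG and GCGTG on both strands in RefSeq windows of 300 bases (250 before to 50 after a start, GRCm38.p6). A CACGTG counts as overlapping matches, one on each strand. Promoters were found for 29 of the 30 genes (Slc2a3 is not in the table), in 43 windows. A match was present in 79.1% of these windows, in 43.8% of all 32851 promoters and in 59.7% of those of the genes tested between compartments. By gene, 26 of the 29 (89.7%) had a match, beside 46.7% of all genes with a promoter and 65.6% of the tested ones. Only Eno2, Gpi1 and Tpi1 had none, so most genes that were not higher in every compartment had a match too. Pgk1, Ldha (both starts) and Slc16a3 are printed as genes higher in every compartment with matches, Tpi1 as such a gene with none, and Hk3 as the myeloid isoform. Each line gives the 250 bases before the start, 5′ to 3′, and capitals mark the matches. They are at chrX:106186850-106187099 (plus strand), chr7:46845554-46845803 and chr7:46846832-46847081 (plus), chr11:120948817-120949066 (plus), chr6:124814159-124814408 (minus) and chr13:55021386-55021635 (minus).
Pgk1: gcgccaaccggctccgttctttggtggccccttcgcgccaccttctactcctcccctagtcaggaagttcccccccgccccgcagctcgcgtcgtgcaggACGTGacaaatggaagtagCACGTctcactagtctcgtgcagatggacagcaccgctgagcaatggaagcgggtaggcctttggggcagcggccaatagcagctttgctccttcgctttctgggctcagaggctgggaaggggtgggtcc
Ldha, start 1: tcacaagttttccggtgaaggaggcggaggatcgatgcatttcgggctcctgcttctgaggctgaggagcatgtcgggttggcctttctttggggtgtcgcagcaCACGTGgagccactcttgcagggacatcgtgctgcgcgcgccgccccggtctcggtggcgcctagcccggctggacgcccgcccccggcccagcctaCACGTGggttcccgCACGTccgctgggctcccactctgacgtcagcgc
Ldha, start 2: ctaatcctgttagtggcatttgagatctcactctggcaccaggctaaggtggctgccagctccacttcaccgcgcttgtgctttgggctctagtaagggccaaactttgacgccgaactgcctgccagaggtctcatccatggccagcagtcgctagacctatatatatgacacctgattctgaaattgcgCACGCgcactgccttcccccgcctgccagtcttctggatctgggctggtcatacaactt
Slc16a3: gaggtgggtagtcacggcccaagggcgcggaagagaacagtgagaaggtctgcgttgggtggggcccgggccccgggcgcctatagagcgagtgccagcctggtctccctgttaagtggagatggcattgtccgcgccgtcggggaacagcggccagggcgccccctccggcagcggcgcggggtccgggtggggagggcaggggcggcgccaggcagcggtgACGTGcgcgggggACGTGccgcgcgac
Tpi1: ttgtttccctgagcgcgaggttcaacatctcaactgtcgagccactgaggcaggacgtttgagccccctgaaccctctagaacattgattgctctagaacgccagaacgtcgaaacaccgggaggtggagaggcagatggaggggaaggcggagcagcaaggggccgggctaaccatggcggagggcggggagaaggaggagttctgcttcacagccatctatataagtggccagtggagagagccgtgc
Hk3: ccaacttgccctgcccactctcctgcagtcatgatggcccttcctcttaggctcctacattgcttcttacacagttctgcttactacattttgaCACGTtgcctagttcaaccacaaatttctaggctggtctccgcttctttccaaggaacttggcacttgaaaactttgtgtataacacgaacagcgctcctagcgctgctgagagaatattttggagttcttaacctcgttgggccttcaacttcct
Upstream matches numbered 2 for Pgk1, 5 and 1 for the starts of Ldha, 2 for Slc16a3, 0 for Tpi1 and 1 for Hk3. A match describes the letters of this window and is not evidence of binding. The genes themselves span chrX:106187100-106203699 (Pgk1), chr7:46841475-46855627 (Ldha), chr11:120948480-120960868 (Slc16a3), chr6:124810586-124814296 (Tpi1) and chr13:55005985-55021385 (Hk3) in GENCODE release M21.

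The third question was how the library labelled CKO+RI stood against Flox+RI, which shares its treatments. Flox+RI is also the first library of the comparison just given, so a gene high in that library is high there and low here. In tumour cells 0 of 29 genes were higher and 5 lower, where 9.91% of all genes were higher and 14.8% lower, a share near that of the 29 genes. The 5 were Hk3 (0.301, 0.216 to 0.414, UMIs 55 and 137), Pfkfb4 (0.437, 0.401 to 0.475), Pfkfb3 (0.490, 0.458 to 0.525), Gapdh (0.643, 0.639 to 0.646) and Eno3 (0.660, 0.637 to 0.683). Host RNA was also present in the tumour sums. Over 10 markers each, macrophage RNA there was 272, 300 and 144 CPM and neutrophil RNA 313, 109 and 129 CPM. The part of such RNA in the Hk3 ratio was not tested. Pfkfb3 was 36.9, 31 and 15.2 CPM and Pfkfb4 22.3, 21.7 and 9.47 CPM in tumour cells, so both libraries from floxed hosts were above the library labelled CKO+RI. The most abundant genes after Gapdh lay inside 1.5-fold, with Pkm at 0.743 (0.738 to 0.747) and Ldha at 0.702 (0.695 to 0.708). Of the 30 genes, 13 were in tumour cells at a level between those of Flox+ICI and Flox+RI. The share of all genes with this order is not given here, so the count is not read as a trait of the set.

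In myeloid cells 3 of 29 genes were higher and 3 lower (14.3% and 11.8% of all genes). Slc2a3 (4.21, 3.5 to 5.1), Pfkfb4 (1.94, 1.66 to 2.28) and Aldoc (1.67, 1.3 to 2.16) were higher. Slc16a1 (0.494, 0.395 to 0.615), Ldhb (0.566, 0.454 to 0.702) and Aldoa (0.643, 0.625 to 0.662) were lower. Within neutrophil-like cells Slc2a3 kept the same order, at 181, 70.2 and 409 CPM. In lymphoid cells 4 of 25 genes were higher, Hk1 (1.61, 1.22 to 2.14), Aldoc (3.38, 1.13 to 13.6, UMIs 20 and 4), Eno1 (1.53, 1.35 to 1.73) and Pdk3 (2.03, 1.27 to 3.33), and Eno3 was lower (0.584, 0.353 to 0.964), beside 10% and 10% of all genes. In endothelial cells 9 of 19 were lower and 1 higher, where 8.78% of all genes were lower and 16.0% higher, with a median log2 ratio of -0.58 against 0.12 over all genes. The 9 were Gapdh (0.427, 0.402 to 0.454), Slc2a1 (0.461, 0.333 to 0.634), Ldha (0.555, 0.492 to 0.627), Pkm (0.587, 0.544 to 0.634), Gpi1 (0.598, 0.512 to 0.700), Pfkp (0.631, 0.472 to 0.843), Pgk1 (0.640, 0.550 to 0.744), Hk1 (0.658, 0.499 to 0.867) and Aldoa (0.663, 0.592 to 0.741). The higher gene, Eno3 (3.98, 1.16 to 21.1), rests on 18 and 3 UMIs. Endothelial cells of the library labelled CKO+RI held a median of 1447 UMIs, against 4183 for Flox+RI. Marker RNA of other cells also differed in this pair. Over 6 erythroid markers it was 8349 CPM in the library labelled CKO+RI (0 of 6 at 0) and 265 in Flox+RI (1 at 0), over 10 epithelial markers 929.9 (1 at 0) and 233 (3 at 0), and over 10 tumour markers 602 and 301 (1 at 0 in each). The Prickle2-led cluster gave 58 of 359 endothelial cells in the library labelled CKO+RI and 5 of 121 in Flox+RI. The part of depth, of this RNA and of this make-up was not tested. No gene of the set was higher in all 4 compartments or lower in all 4, beside 56 and 30 of 7844 genes.

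Tumour cells fell into 6 clusters, which took very different shares of each library, so the levels were read inside them. A cluster led by Il1rl1 and R3hdml held 5.79%, 58.1% and 1.46% of the tumour cells, and a cluster led by histone genes 8.98%, 3.19% and 31.6%. A cluster led by Dusp9 and Cdc20 held 20.9%, 15% and 26.5%, one led by Syne2 38.3%, 8.77% and 29.6%, and one led by the growth factor gene Ereg 11.2%, 14.4% and 5.64%. An interferon cluster led by Gbp2 held 14.8% of Flox+ICI and 5.25% of the library labelled CKO+RI. The difference between Flox+RI and Flox+ICI was seen inside the clusters. In the Il1rl1-led, histone-led, Dusp9-led, Syne2-led and Ereg-led clusters 10, 10, 14, 11 and 10 genes were higher in Flox+RI and 0, 1, 0, 0 and 0 lower, where 3.31% to 5.64% of all genes were higher. Pgk1 was 421, 1103 and 759.7 CPM in the Dusp9-led cluster and 265, 527 and 361 in the Ereg-led one. Without the Il1rl1-led cluster 12 genes were higher in tumour cells of Flox+RI. Pfkfb3 was lower in the library labelled CKO+RI than in Flox+RI in each of the 5 clusters compared, and without the Il1rl1-led cluster 3 genes were lower in place of 5. The share of all genes without the Il1rl1-led cluster is not given here, so the counts for that setting have no background beside them.

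The clusters differed in which genes they held. Summed over the 30 genes, the Ereg-led cluster had the lowest level of the tumour clusters in each library, at 6378, 9879 and 7189 CPM, and the Il1rl1-led cluster had 9916, 15441 and 12504 CPM. Aldoa, Tpi1, Gapdh, Pgk1, Pgam1, Eno1, Pkm and Ldha were each lower in the Ereg-led than in the Il1rl1-led cluster in every library. Ldha was 516, 979.6 and 571 CPM in the Ereg-led and 929, 1606 and 1241 in the Il1rl1-led cluster. Hk2, Pfkfb3 and Pfkfb4, chosen after their values were seen, were higher in the Ereg-led than in the Il1rl1-led cluster in every library. Hk2 was 184, 168 and 233 CPM in the Ereg-led cluster against 65, 117 and 83.8 in the Il1rl1-led one, Pfkfb3 66.5, 46.4 and 27.2 against 25.2, 27.6 and 8.82, and Pfkfb4 39.7, 43 and 22.9 against 18.6, 18.2 and 6.3. Slc2a1 was 72.9, 94.3 and 106 CPM in the Ereg-led and 55.6, 84.4 and 69.9 in the Il1rl1-led cluster, and in Flox+RI it was higher still in the histone-led cluster. Pfkl ran the opposite way to Hk2, at 67.8, 111 and 114 against 86, 151 and 164 CPM. Clusters were defined on other genes of the same cells, and 1 library stands for each group, so these are descriptions without a test. The Ereg-led cells had median mitochondrial shares of 3.55%, 3.94% and 8%, the highest of the tumour clusters in each library, and the part of cell quality was not tested.

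**Figure D4:**
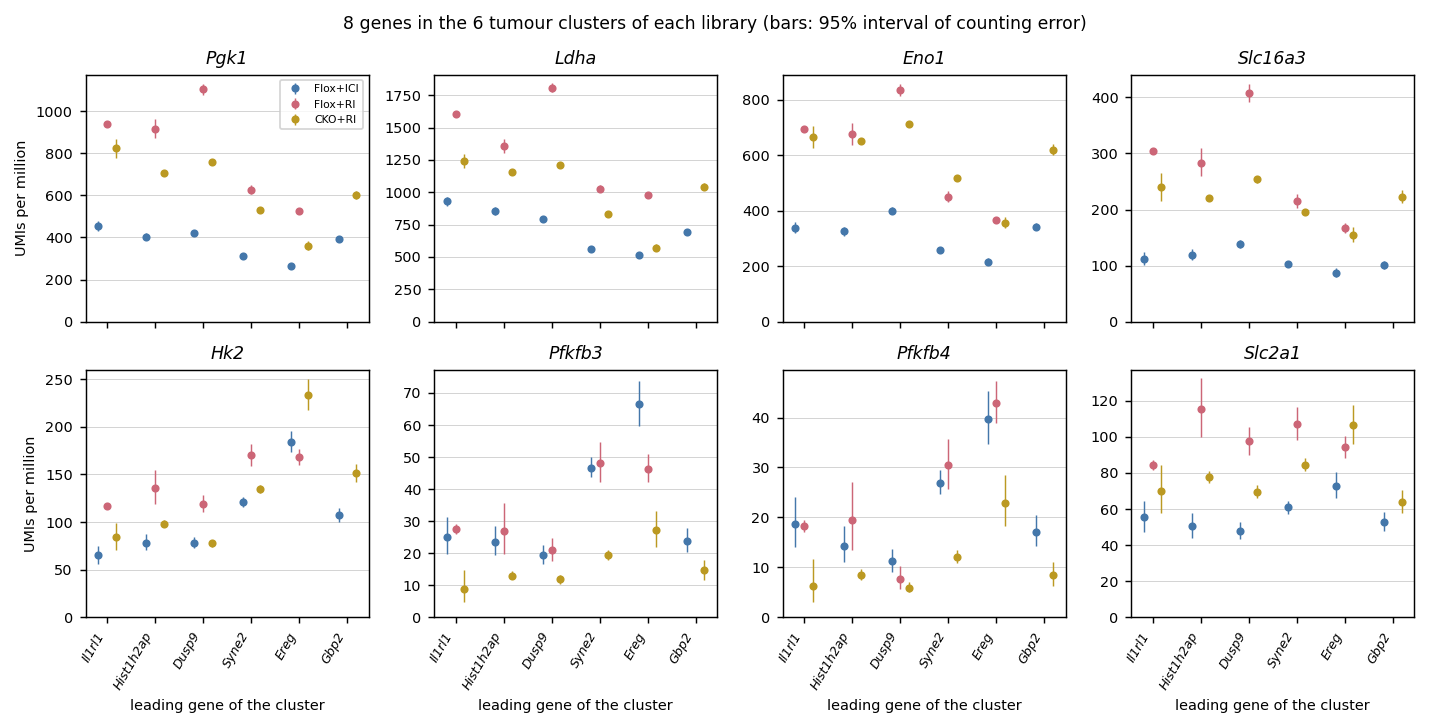
Level of 8 genes (CPM, linear axis from 0) in the 6 tumour clusters, named by their leading gene, with 1 point per library and bars for the 95% interval of counting error; clusters under 50 cells in a library are not drawn. Pgk1, Ldha, Eno1 and Slc16a3 are lower in the Ereg-led than in the Dusp9-led cluster, Hk2, Pfkfb3 and Pfkfb4 are higher, and Pgk1, Ldha, Eno1 and Slc16a3 of Flox+RI lie above those of Flox+ICI in each cluster drawn for both.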

How the data were processed

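The authors deposited UMI counts per gene and barcode from 3 single-cell libraries, made with Cell Ranger (6.1.2 per the file headers, 6.0 per the submitters' processing notes) on mm10/GRCm38; the sources used here do not name the annotation, and Seurat 5.0.3 is in the notes. Every deposited barcode had at least 500 UMIs; barcodes under 200 genes or over 20% mitochondrial UMIs were dropped, and the highest-scored barcodes were removed as doublets (915, 1367 and 653), leaving 9777, 11706 and 8383 of 10842, 13340 and 9300. Libraries shared 31 to 37 barcodes. Cells were clustered with scanpy 1.11.5 (Leiden resolution 1.0, 25 clusters) and named from marker lists. The tumour name also required Xist under 20 CPM. In all, 3 clusters stayed unnamed and were left out, so names are rebuilt and not the authors'. UMI sums per library and compartment were scaled by their totals and tested with edgeR 4.0.16 (R 4.3.3) with a library block, after a script check on simulated data. Library pairs were compared by exact conditional binomial intervals (scipy 1.17.1), which cover counting error only. Every gene of the 30 is given by its difference, with per-library values for the most abundant, the most different and the isoform sets; library comparisons name genes past 1.5-fold and the most abundant. Alternatives were other filters, clusterings, scalings, thinning, left-out libraries and DESeq2 1.42.0. The genes, lists and rules were chosen with earlier results of these data known.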

Additional observations from a re-analysis of the deposited data

Results flagged for a closer look

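Some genes were past 1.5-fold in opposite directions in different compartments of the same pair of libraries. The differences between compartments were not tested, and with 1 library per group no cause is named. Hk1, a hexokinase, was at a ratio of 1.89 in endothelial and 0.646 in lymphoid cells for Flox+RI over Flox+ICI. For the library labelled CKO+RI over Flox+RI it was the other way, at 0.658 in endothelial and 1.61 in lymphoid cells, and both comparisons contain Flox+RI. Pfkfb4, which makes the phosphofructokinase activator, was at 1.94 in myeloid and 0.437 in tumour cells in the latter comparison. Eno3, the muscle enolase, was at 3.98 in endothelial cells, from 18 and 3 UMIs, against 0.660 in tumour and 0.584 in lymphoid cells.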

How the results depend on the processing

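Against myeloid cells the 13 higher genes became 8 with no doublet removal, at Leiden resolution 2.0 and with TMM scaling, and 7 with DESeq2 size factors. With no doublet removal the 17 higher than in lymphoid cells became 7, the 17 higher than in endothelial cells 10, and the 3 lower than in endothelial cells 5. Leaving out 1 library gave 9 to 12, 14 to 17 and 13 to 17 higher genes against myeloid, lymphoid and endothelial cells, and 6 to 7, 4 to 6 and 3 to 4 lower ones. In tumour cells of the library labelled CKO+RI over Flox+RI, 2 genes were higher with equal weight per cell, and 3 were lower with at most 10% mitochondrial UMIs, at Leiden resolution 2.0, past 2-fold, and, chosen after seeing the data, without the R3hdml-led cluster or as a mean within clusters. For Flox+RI over Flox+ICI, 8 genes were higher with no doublet removal and 6 past 2-fold, while 2 were lower with equal weight per cell and 1 as a mean within clusters. Without doublet removal and at resolution 2.0 the tumour class held 937 and 2052 Flox+RI cells in place of 4173; beyond that the cause was not tested. Aldoc reversed to 1.71 and Slc16a3 to -0.90 (log2) against neutrophil-like cells alone, and Hk2 in lymphoid cells of Flox+RI over Flox+ICI to -0.44 at 2000 UMIs per cell. No paired analysis was possible because each group holds 1 library and the columns share no replicate pairs between groups. Depth limits endothelial cells most. The share of all genes under each alternative is not given here, so the changed counts have no background beside them.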

Other observations

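Epithelial-like and fibroblast-like cells, which lie outside the 4 compartments, carried the same genes. Ldhb, the lactate dehydrogenase chain of oxidative tissue, was highest in epithelial-like cells, at 191, 233 and 143 CPM (order Flox+ICI, Flox+RI, CKO+RI), against 28.4, 34.7 and 25.2 in tumour cells. Fibroblast-like cells held 50.2, 42.1 and 73.9 CPM of it. Aldoc was 31.6, 23.8 and 46.9 CPM in alveolar macrophage-like cells, a class within the myeloid compartment, above tumour cells in each library. Pgk1 was 114, 636 and 361 CPM in fibroblast-like and 138, 344 and 390.4 in epithelial-like cells. Ldha was 319, 1189 and 684 CPM in fibroblast-like and 331, 822 and 714 in epithelial-like cells. Flox+ICI was the lowest library for both genes in both classes. Slc2a1 was 46.1, 82.8 and 43.8 CPM in fibroblast-like cells. These are single libraries, with no test. An unnamed cluster with low Xist that is led by Lum and Dcn came to 92.7% from the library labelled CKO+RI, where it held 1174 cells. Its UMIs there came to 36.4% of those of the tumour class of that library. An unnamed cluster led by Ccl3 came to 98.8% from Flox+RI, where its 2248 cells were 19.2% of the kept cells. The tumour and myeloid sums leave both clusters out.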
